A study of Xenopus laevis with 16 samples.

Results

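Animal caps from embryos injected with both Wnt8 and Xnr2 mRNA are compared here with caps from embryos injected with Xnr2 mRNA alone. An animal cap is the ectoderm cut from the top of a Xenopus laevis blastula, which forms epidermis in culture unless a growth factor redirects it. The members were chosen by sample: 2 of the 16 libraries of the study, the Wnt8 plus Xnr2 library and the Xnr2 library, joined on transcript ID over the 15376 transcripts that both deposited lists hold. The Xnr2 caps came from embryos injected with 200 pg of Xnr2 mRNA, and the Wnt8 plus Xnr2 caps from embryos injected with 200 pg of Xnr2 and 16 pg of Wnt8 mRNA. Injection was done at early cleavage in Nasco frogs' embryos, caps were cut at stage 9 and RNA was taken at stage 12, the late gastrula. Both libraries have the same matched control, uninjected caps cut and kept in the same way, called control 4 here. The other controls (1 to 3), a library of caps with 16 pg of Wnt8 alone whose matched control is control 3, and libraries of the dorsal and the ventral pieces of embryos cut apart at stage 10 and kept to stage 12, are used beside them. Each injected group and each embryo piece is 1 library, and the labels do not give the clutch or the number of caps pooled.

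Xnr2 is a Nodal-class ligand of the TGF-beta family. Nodal signalling through Smad2 turns animal cap cells into mesoderm and endoderm, with the strongest signalling giving endoderm and the Spemann organizer, the dorsal tissue that secretes antagonists of BMP, Wnt and Nodal. Wnt8 acts through beta-catenin: before the blastula's own genes are active this pathway sets up the dorsal side, and during gastrulation zygotic Wnt8 acts the other way, on the ventral and posterior side. RNA injected during cleavage can act in both periods. Negative feedback genes such as axin2 and sp5 are textbook readouts of beta-catenin activity.

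Values are RPKM, which scales reads by transcript length and by the mapped reads of the library, as the authors deposited them. A difference is given as the log2 ratio of (RPKM + 1), Wnt8 plus Xnr2 over Xnr2, which understates the change of low transcripts. A transcript was called higher or lower when the ratio on that scale was 4-fold or more and the larger of the 2 values was 5 RPKM or more. With 1 library a group there is no replicate spread and no test. Intervals on a ratio are 95% exact binomial intervals from whole reads recovered from the RPKM, and cover counting error only.

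The recovered depths were 30054289 mapped reads for Xnr2 and 33754741 for Wnt8 plus Xnr2. The explants were checked against their tissue. The 38 transcripts of the epidermis list summed to 8974 RPKM in control 4, 3034 in Xnr2 and 2493 in Wnt8 plus Xnr2, and 1 of them, the lectin gene itln1.L, was at 0 in Wnt8 plus Xnr2. The 24 transcripts of the Mix and T-box mesendoderm list summed to 18.9, 2650 and 2784 RPKM. Mesendodermal transcripts were thus at high levels in both injected libraries, beside a remainder of epidermal ones. In bulk tissue, fewer cells of a type and less RNA per cell cannot be told apart.

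In Wnt8 plus Xnr2, 22 transcripts, 0.143% of the 15376, were called higher and 14, 0.0911%, were called lower. Head and organizer regulators (crx, cer1, frzb, foxa4, admp), endodermal sox17 genes and the ectodermal regulator foxi1 made up much of the first set. Feedback targets of Wnt (axin2, sp5), BMP targets (msx1, msx2), gbx2 and immediate-early genes (junb, nr4a1) made up much of the second. At a 2-fold ratio with the same minimum, 291 transcripts (1.89%) were higher and 157 (1.02%) were lower. Across all transcripts the median log2 ratio was 0.07, with the 5th percentile at -0.57 and the 95th at 0.83. The counting interval lay beyond a 2-fold ratio for all 36 called transcripts. It comes from the same reads as the 4-fold calls, so it is no separate support for them. With a pseudocount of 5 RPKM in place of 1 the counts were 11 and 5.

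Untreated caps varied more than this. Over the 14451 transcripts also measured in every control, the same 4-fold rule was passed by 113 to 657 transcripts between any 2 of the 4 controls, and by 33 between Wnt8 plus Xnr2 and Xnr2. Control pairs that include control 1 had 302 to 657, and the other pairs 113 to 153. The SD of the log2 ratio was 0.56 to 1.01 between controls and 0.45 here. The labels give each control to a different set of treated explants, so their pairs may also hold differences between sets, while both Xnr2 libraries are given the same control. Levels over the controls are given beside some of the results below. For a gene list, the spread between controls is the SD, over the 4 controls, of the median log2(RPKM + 1) of its members. It is a spread of levels in untreated caps, not of ratios. Where members lie near 0 in the controls it is small for that reason, and says little about variation at higher levels.

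**Figure D1:**
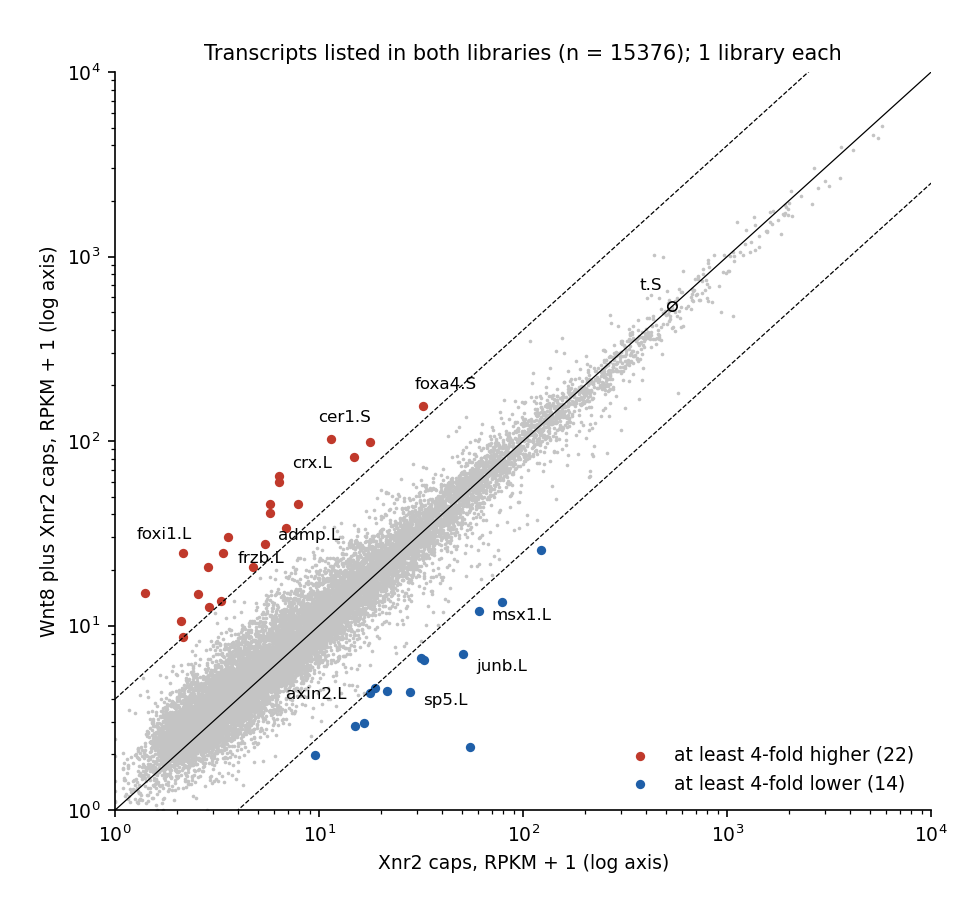
Each point is 1 of the 15376 transcripts, plotted by its RPKM + 1 in Xnr2 caps (x) and in Wnt8 plus Xnr2 caps (y), both on log axes; the solid line marks equality and the dashed lines a 4-fold ratio. The 22 called higher (red) include foxi1, crx, cer1, frzb and foxa4, the 14 called lower (blue) include junb, sp5, msx1 and axin2, and t.S (ring), the brachyury gene, lies on the line of equality.

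The injected genes came first. Reads of nodal2.L, the gene of Xnr2, stood at 0.0374 RPKM in control 4, 3.29 in Xnr2 and 12.5 in Wnt8 plus Xnr2, a log2 ratio of 1.65 with a read ratio of 3.16 to 4.58, although the labelled dose was the same. The wnt8a.L transcript was at 0.168 RPKM in control 4, 101 in Xnr2 and 77.0 in Wnt8 plus Xnr2, and wnt8a.S at 0, 94.7 and 45.7. Neither copy was thus higher with the Wnt8 injection; in plain caps the same dose went with 12.9 RPKM of wnt8a.L against 0.463 in control 3. Injected and endogenous RNA cannot be told apart in these values, and whether the higher nodal2.L level has a part in the differences below was not tested.

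Organizer genes were higher with Wnt8. Of the 22 transcripts of the organizer list in both libraries, 12 were at least 2-fold higher (54.5%, against 1.89% of all transcripts) and 7 of these passed 4-fold, while none was 2-fold lower. Their median log2 ratio was 1.25 against 0.07 over all transcripts, and the spread between controls was 0.13. As several members lie near 0 in the controls, that spread says little about variation at higher levels. The summed level was 144 RPKM in control 4, 708 in Xnr2 and 1451 in Wnt8 plus Xnr2. The 7 calls and these sums include the crx and OTX2-related transcripts, described below, which control 4 already held.

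The secreted antagonists of the organizer stood out. cer1.S, which encodes Cerberus, an extracellular inhibitor of Nodal, BMP and Wnt ligands, was listed at 0 in control 4 and measured 10.4 RPKM in Xnr2 and 101 in Wnt8 plus Xnr2, a read ratio of 9.77 (8.90 to 10.7). frzb.L, a secreted Frizzled-related Wnt antagonist, went from 2.38 to 23.8 RPKM, a read ratio of 10.0 (8.24 to 12.3), and was at 0.204 or less in the 4 controls. admp.L, a BMP-family ligand made in the organizer, went from 4.45 to 26.7 RPKM, with 0.104 or less in the controls. In each of these the Xnr2 library was above every control, and the Wnt8 plus Xnr2 library far above Xnr2. Chordin, the BMP antagonist, did not follow: its model was at 169 RPKM in Xnr2 and 212 in Wnt8 plus Xnr2 (log2 ratio 0.32), and nog.L (noggin) was at 5.22 and 5.48.

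Among the transcription factors, foxa4.S, a forkhead gene of the axial midline, was at 0.0279 RPKM or less in the 4 controls, 31.4 in Xnr2 and 154 in Wnt8 plus Xnr2. Its other copy, foxa4.L, read 107 and 346 (log2 ratio 1.68). The LIM homeobox gene lhx1 of the organizer was 2-fold higher in both copies, at 19.1 and 53.1 RPKM for lhx1.L and 21.8 and 49.4 for lhx1.S. The homeobox gene not, which marks organizer and notochord, stayed close, with 53.0 and 51.2 RPKM for not.L and 33.5 and 31.6 for not.S.

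The crx and OTX2-related transcripts, of the Otx family of head homeobox genes, had another pattern, since uninjected caps already held them. crx.L was at 36.5 RPKM in control 4, 5.37 in Xnr2 and 63.6 in Wnt8 plus Xnr2, a read ratio of 11.8 (10.6 to 13.2). Its copy crx.S read 28.7, 1.85 and 19.8, and the model Xelaev18039840m, matched by the authors to human OTX2, read 17.1, 1.15 and 7.66. All 3 were low with Xnr2 alone, and in Wnt8 plus Xnr2 only crx.L exceeded control 4. Over the 4 controls crx.L ran from 18.7 to 36.5 RPKM and Xelaev18039840m from 7.40 to 44.1. The 3 make up all calls in the list of anterior neural and cement gland genes. They are also its only 2-fold higher members (30.0%, against 1.89% of all). All 10 of its transcripts were above 0 in log2 ratio, where 41.9% of the 14165 transcripts also compared in plain caps were below 0. The list's median of 0.40, against 0.07 over all transcripts, is smaller than its spread between controls, 0.71.

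Some organizer and mesendoderm transcripts are in the Wnt8 plus Xnr2 list alone. The authors left out a transcript whose mean over the treated library and control 4 was under 1 RPKM, which bounds the level in the library that does not list it. frzb.S measured 31.6 RPKM in Wnt8 plus Xnr2 and was under 1.91 in Xnr2. The endodermal homeobox gene mixer.L measured 27.3 RPKM against under 2.00, and admp.S 11.1 against under 1.98, so these 3 are also past 4-fold at the bound. gsc.L, the goosecoid gene of the organizer, was at 10.4 RPKM against under 1.91, cer1.L at 6.28 against under 2.00 and the G-protein regulator rgs16.S at 10.5 against under 2.00. ssh2-like.L and vstm2b.L measured 6.72 and 6.11 RPKM there. In all, 570 transcripts were listed with Wnt8 plus Xnr2 alone, of which 19 had at least 5 RPKM. The bound is never above 2.00 RPKM, so any transcript of 5 RPKM or more is at least 2-fold apart by construction.

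**Figure D2:**
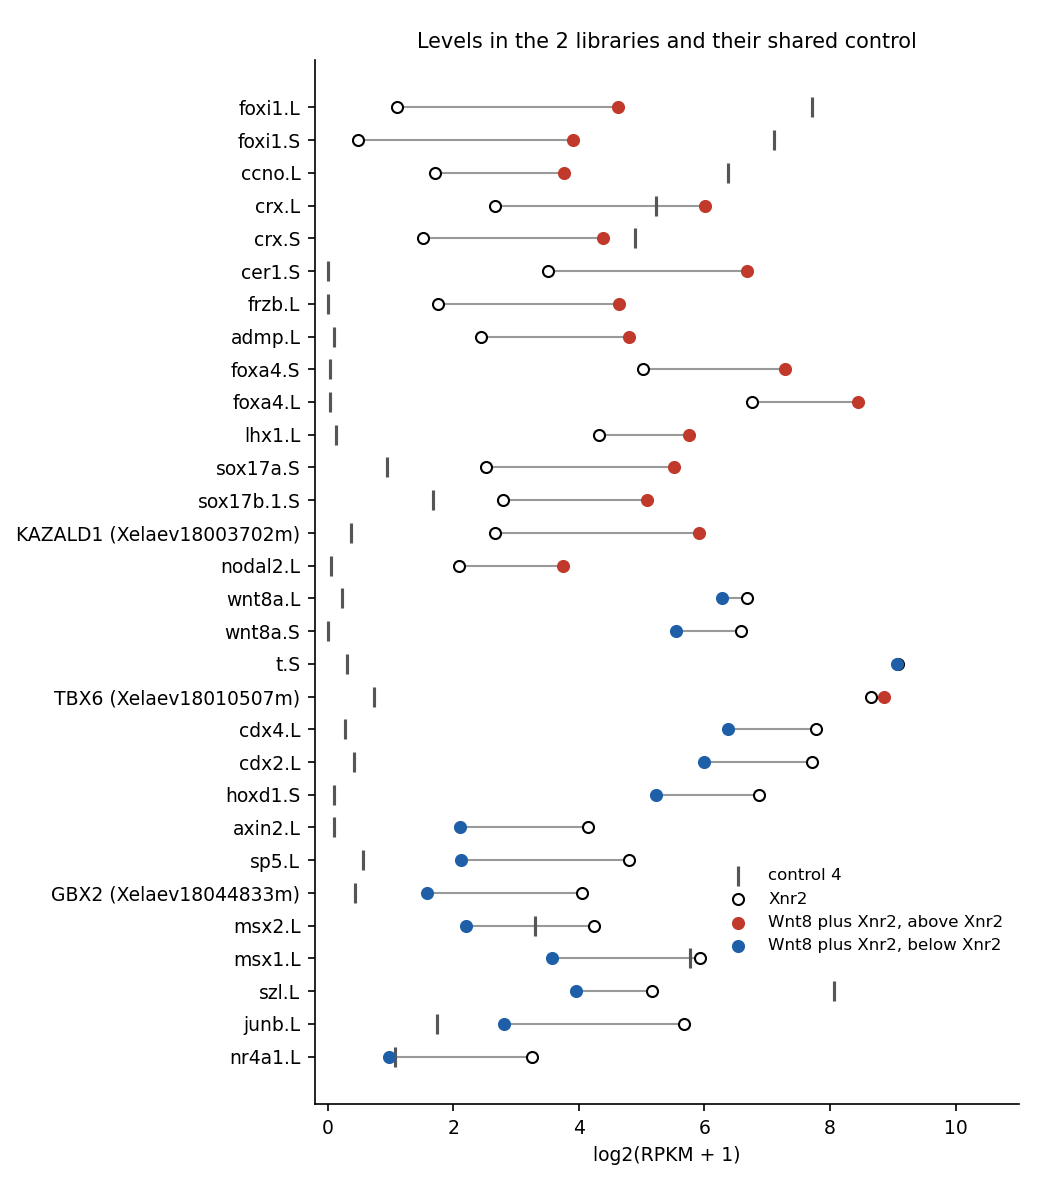
Levels of selected transcripts as log2(RPKM + 1) in control 4 (grey bar), Xnr2 (open circle) and Wnt8 plus Xnr2 (filled, red where above Xnr2 and blue where below), 1 library each. cer1.S, frzb.L and foxa4 transcripts lie near 0 in control 4 and highest in Wnt8 plus Xnr2. The sox17 transcripts are also highest there, with control 4 below Xnr2 but not at 0. foxi1 and ccno.L are highest in control 4, and the cdx, hox, axin2 and sp5 transcripts are highest in Xnr2.

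Endoderm genes were split. Of 20 listed transcripts 7 (35.0%, against 1.89% of all) were 2-fold higher, 4 of them past 4-fold, and 2 (10.0%, against 1.02%) were 2-fold lower. The median was 0.62, with a spread between controls of 0.39, and became 0.99 with copies summed and 1.07 with the transcripts of 1 list set at their bound. sox17a.S, a Sox factor that specifies endoderm, was at 0.929 RPKM in control 4, 4.72 in Xnr2 and 44.8 in Wnt8 plus Xnr2, and its copy sox17a.L at 0.588, 8.70 and 18.2. sox17b.1.S read 2.21, 5.90 and 33.0 RPKM. The S copy thus had the larger ratio, 9.47 (8.26 to 10.9) in reads against an interval of 1.80 to 2.43 for the L copy. cer1.S and foxa4.S, described above, are the other 2 calls of this list. gata6.L rose from 0.926 to 5.01 RPKM by the 2-fold rule, and the highly abundant a2m.S read 181 and 269. The 2 transcripts that were 2-fold lower are the L and S copies of cdx2, which is also a posterior gene.

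Several called transcripts have less settled roles. The 2 models matched to human KAZALD1, a secreted protein, stood at 5.37 and 59.3 RPKM for Xelaev18003702m and at 4.73 and 39.7 for Xelaev18003703m. They may split the reads of 1 locus. LOC101731538-like.S, matched to the acetyltransferase NAT8B, was at 0.0164 RPKM or less in every control, 16.7 in Xnr2 and 97.8 in Wnt8 plus Xnr2. Xelaev18007266m, matched to the immunoglobulin-like VPREB1, was listed at 0 in the 4 controls and measured 2.59 and 29.1 RPKM. The membrane serine protease gene tmprss4.L read 6.84 and 44.3 RPKM, and the membrane protein gene tmem116.L 1.55 and 13.9. These all lay higher in Wnt8 plus Xnr2 than in any control. RGCC, a cell cycle regulator, differed: Xelaev18013239m was at 53.6 to 98.02 RPKM in the controls, 1.11 in Xnr2 and 9.62 in Wnt8 plus Xnr2. A few more calls fall outside the naming rule and were named after their values were seen. The amino acid transporter slc6a14.2.L read 13.8 and 80.6 RPKM, the heparan sulfate sulfotransferase hs6st1.L 1.89 and 11.6, and LOC100494211.L, which the authors name BIGHEAD, 3.72 and 19.8.

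The posterior axis genes lay lower with Wnt8. Of the 32 transcripts of the caudal, even-skipped and Hox list, 14 were at least 2-fold lower (43.8%, against 1.02% of all transcripts), none was 2-fold higher, and 30 had a log2 ratio below 0. No member passed 4-fold. The median was -0.95 and became -0.59 with a pseudocount of 5 RPKM. The spread between controls was 0.059, but this cannot measure variation at the levels of the injected libraries. The summed level was 2.98 RPKM in control 4, 1719 in Xnr2 and 676 in Wnt8 plus Xnr2. These genes were near 0 in control 4 and remained well above it with both RNAs.

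The caudal genes, homeobox regulators of trunk and tail, were the most abundant. cdx1.S was at 0.327 RPKM in control 4, 316 in Xnr2 and 151 in Wnt8 plus Xnr2, and cdx2.S at 0.148, 257 and 85.1. The cdx4 and Hox examples were chosen after their values were seen. cdx4.L read 218 and 82.1 RPKM and cdx4.S 216 and 84.4. Both copies of cdx2 and cdx4 were thus lower by like amounts, with log2 ratios from -1.72 to -1.35. Among anterior Hox genes, hoxd1 was lower in both copies, at 116 and 36.4 RPKM for hoxd1.S and 89.1 and 32.0 for hoxd1.L. The only 2 members above 0 were hoxa9.L, at 5.36 and 7.93 RPKM, and hoxd4.S, at 2.88 and 3.26. Another 7 members, hoxb1.S and evx1.S among them, were listed with Xnr2 alone. hoxb1.S, which marks the hindbrain and early mesoderm, measured 10.1 RPKM in Xnr2 and was under 2.00 with Wnt8.

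Wnt targets did not rise as a group. Of 21 transcripts in the list of beta-catenin targets and feedback genes, 2 were 2-fold higher (9.52%, against 1.89% of all). Another 4 were 2-fold lower (19.0%, against 1.02%), and the median was -0.05. axin2.L, the scaffold of the complex that degrades beta-catenin, was at 0.166 RPKM or less in the 4 controls, 16.7 in Xnr2 and 3.33 in Wnt8 plus Xnr2, an inverse read ratio of 5.01 (4.54 to 5.53). The transcription factor sp5.L read 0.477 RPKM in control 4, 26.9 in Xnr2 and 3.34 in Wnt8 plus Xnr2, and sp5.S 0, 9.16 and 2.02. Both genes were thus higher with Xnr2 alone than in control 4, and lower with both RNAs than with Xnr2 alone. axin2.S went the same way, being listed with Xnr2 alone at 6.31 RPKM and under 1.91 with Wnt8. The 2 that were higher are sall1.S, a zinc finger gene at 31.4 and 71.7 RPKM, and the APCDD1 model Xelaev18033587m, a Wnt inhibitor at 4.81 and 13.7. lef1.L, the nuclear partner of beta-catenin, was at 18.4 and 24.6.

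Wnt ligands, receptors and antagonists had 3 of 37 transcripts 2-fold higher (8.11%, against 1.89% of all) and 7 lower (18.9%, against 1.02%). The median was -0.12. The 3 higher were cer1.S, frzb.L and rspo2.L, an R-spondin that strengthens Wnt signalling, at 2.49 and 9.95 RPKM. The BIGHEAD transcripts, given below, are also of a Wnt antagonist but were not counted among the 37. Of these, LOC100494211.L had a log2 ratio of 2.14. Among those lower were the receptor fzd10 in both copies, at 37.0 and 9.02 RPKM for fzd10.S and 66.0 and 26.5 for fzd10.L. The Dickkopf coreceptor kremen2 was lower too, at 10.0 and 2.98 RPKM for kremen2.L and 14.7 and 5.08 for kremen2.S. wnt8a.S, a copy of the injected gene, is also among the 7. So are szl.L and szl.S, which are counted again in the list of BMP targets below. wnt11b.L, a noncanonical ligand, read 264 and 160.

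Many BMP targets and ventral genes were lower. Of 43 transcripts 14 (32.6%, against 1.02% of all) were 2-fold lower, 3 of them past 4-fold, none was 2-fold higher, and 39 had a log2 ratio below 0. The median was -0.67, which is smaller than the spread of this list between controls, 0.98. The summed level was 3843 RPKM in control 4, 1606 in Xnr2 and 907 in Wnt8 plus Xnr2. msx1.L, a homeobox target of BMP, was at 53.3 RPKM in control 4, 59.997 in Xnr2 and 10.9 in Wnt8 plus Xnr2, and msx1.S at 81.2, 30.6 and 5.67. msx2.L read 8.83, 17.9 and 3.59 RPKM, and msx2.S 1.45, 40.5 and 12.9. The controls ranged from 7.38 to 118 RPKM for msx1.S and from 1.87 to 15.9 for msx2.L, so that msx1.S with both RNAs lay below the lowest control and msx2.L lay inside the range.

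The other BMP feedback genes gave smaller ratios and are named after their values were seen. The Chordin protease inhibitor sizzled, szl.L, was at 265 RPKM in control 4, 34.9 in Xnr2 and 14.5 in Wnt8 plus Xnr2, and szl.S at 107, 30.4 and 7.27. The pseudoreceptor bambi.L read 334, 85.6 and 43.0 RPKM. The controls ranged from 36.7 to 377 RPKM for szl.L and from 124 to 352 for bambi.L. ventx1.1.S, a ventral homeobox gene, read 12.9, 58.4 and 19.9. Not all followed: the 2 GATA2 models, 193 and 220 RPKM in control 4, were at 9.47 and 10.8 in Xnr2 and at 10.9 and 13.3 with Wnt8. GATA2 was thus low in both injected libraries.

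The most abundant general mesoderm genes differed little. The Mix and T-box list had 3 of 24 transcripts 2-fold higher (12.5%, against 1.89% of all) and 1 lower (4.17%, against 1.02%). The lower one was wnt8a.S, a copy of the injected gene, and the median was 0.14. Another 5 members were listed with Wnt8 plus Xnr2 alone and 0 with Xnr2 alone. Of these, mixer.L, mixer.S and gsc.L reached 5 RPKM, which by itself puts them at least 2-fold higher at the bound. mixer.L also passed 4-fold there. t.S (brachyury) was at 0.245 RPKM in control 4, 538 in Xnr2 and 534 in Wnt8 plus Xnr2, an interval on the read ratio of 0.98 to 1.01. The TBX6 models of paraxial mesoderm read 402 and 462 RPKM for Xelaev18010507m and 432 and 456 for Xelaev18007613m. These are among the most abundant mesodermal transcripts of both libraries, and their ratios lie within the central spread of all transcripts.

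The notochord list had 3 of 13 transcripts 2-fold higher (23.1%, against 1.89% of all), foxa4.L, foxa4.S and admp.L. Its median was 0.04 and changed sign to -0.03 after centring and to -0.06 after quantile normalization. The paraxial and muscle list had a median of -0.20 and 2 of 47 transcripts 2-fold higher (4.26%, against 1.89% of all). This list had 8 that were 2-fold lower (17.02%, against 1.02%). Its 2 higher members, also 2 of the 3 higher members of the 16 in the retinoid list, were the copies of aldh1a2, which makes retinoic acid, at 41.8 and 106 RPKM for aldh1a2.L and 27.9 and 74.3 for aldh1a2.S. Of the most abundant retinoid members, rdh10.L, a retinol dehydrogenase that feeds this synthesis, was the third higher one, at 79.3 and 166 RPKM, and the CRABP2 model Xelaev18040535m, a retinoic acid binding protein, read 251 and 149. The 3 higher retinoid members were 18.8% of that list (against 1.89% of all), and the retinoid median was -0.07. Its 1 lower member (6.25%, against 1.02%) was dhrs3.S, at 12.1 and 5.22 RPKM. The 8 lower of the paraxial and muscle list include msgn1.L of the presomitic mesoderm, at 163 and 73.0. Both copies of hes4 and of hes5_x2 are also among them, with dlc.L at 137 and 56.4. myod1.S, the myogenic regulator, read 309 and 288.

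In the Nodal pathway list 6 of 22 transcripts were 2-fold higher (27.3%, against 1.89% of all) and 1 lower (4.55%, against 1.02%). The 6 include nodal2.L, the gene of the injected Xnr2. The median, -0.02, changed sign when L and S copies were summed and when transcripts of 1 list were added. It also did so when those without a read in the full table were left out. The Nodal inhibitor lefty was higher in both copies, at 7.61 and 19.0 RPKM for lefty.L and 9.37 and 24.7 for lefty.S. gdf3.S, a ligand that works with Nodal, read 143 and 307. With cer1.S and the nodal transcripts these are ligands and extracellular inhibitors. The FGF and MAPK list had 1 of 39 transcripts higher (2.56%, against 1.89% of all), flrt3.S at 11.7 and 35.1 RPKM. The 2 lower (5.13%, against 1.02%) were the copies of fos, which are counted again in the immediate-early list below. The median was -0.05. Its most abundant members, the ETV1 models of this transcription factor family downstream of FGF, read 126 and 107 RPKM for Xelaev18033008m and 99.8 and 81.1 for Xelaev18030915m.

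**Figure D3:**
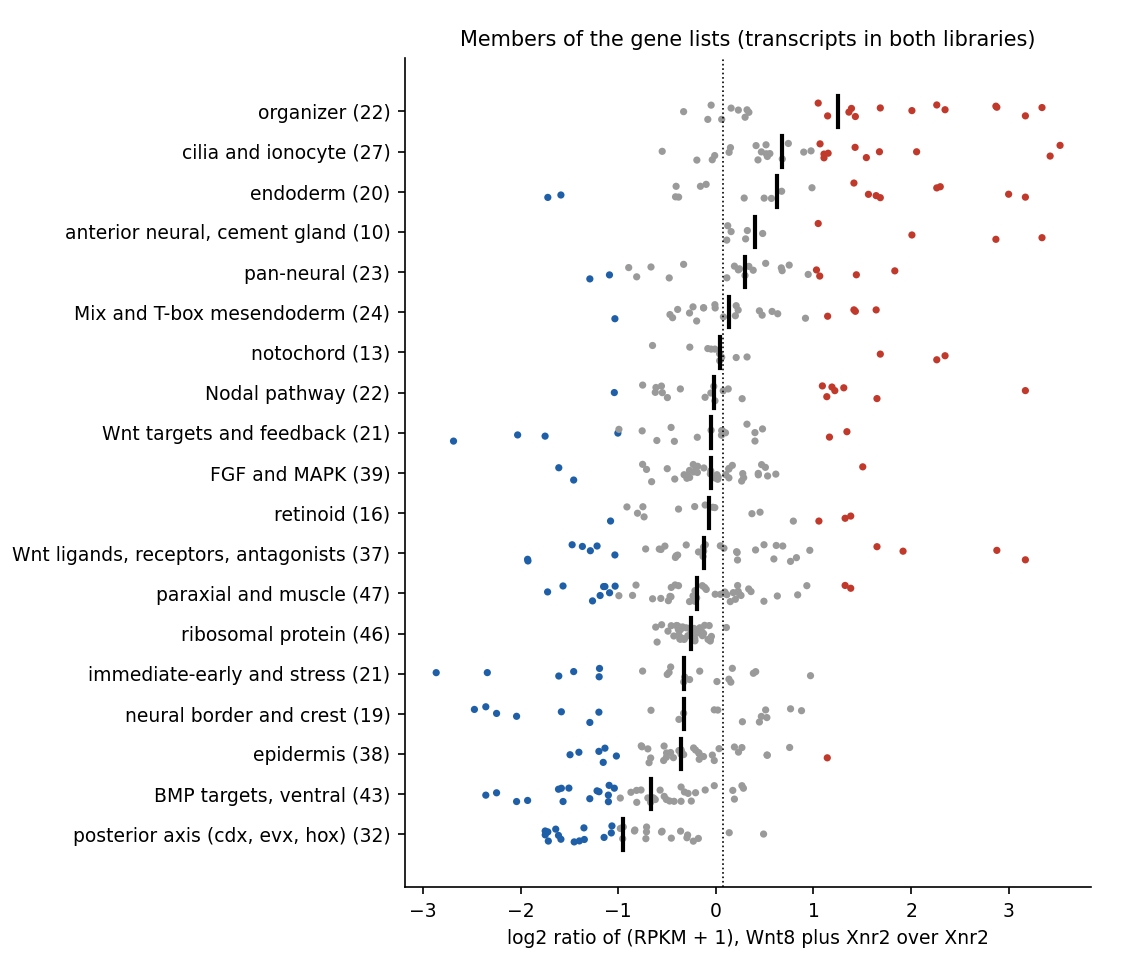
Each point is 1 transcript of a gene list, placed by its log2 ratio of (RPKM + 1), Wnt8 plus Xnr2 over Xnr2 (red at 1 or more, blue at -1 or less, whatever the level), with list sizes in brackets, black bars at list medians and a dotted line at the median of all transcripts, 0.07. Organizer transcripts have the highest median, 1.25, and posterior axis transcripts the lowest, -0.95; a transcript can be in several lists.

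A few immediate-early and stress genes were lower. Of 21 listed transcripts 6 (28.6%, against 1.02% of all) were 2-fold lower, namely both copies of junb, fos and the chaperone gene hspa5, and none was 2-fold higher. The list as a whole had 7 members above 0 and a median of -0.33, within its spread between controls of 0.38. junb.L, of the AP-1 family, was at 2.36 to 9.78 RPKM in the controls, 49.9 in Xnr2 and 6.0 in Wnt8 plus Xnr2, an inverse read ratio of 8.33 (7.61 to 9.13). junb.S read 0.901 RPKM in control 4, 31.7 in Xnr2 and 5.46 with Wnt8. nr4a1.L, outside the list, an orphan nuclear receptor gene that responds quickly to stimuli, was at 1.18 RPKM or less in the controls, 8.49 in Xnr2 and 0.979 with Wnt8, and nr4a1.S at 14.3 and 3.68 in the 2 libraries. junb.L and nr4a1.L thus stood above all controls in Xnr2 and within the range of the controls in Wnt8 plus Xnr2. egr1.L, of the same class, did not share this, at 30.9 and 34.0 RPKM against 0.429 in control 4.

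Neural border and crest genes had 7 of 19 transcripts (36.8%, against 1.02% of all) 2-fold lower, 4 of them past 4-fold, and none 2-fold higher, while 8 had a log2 ratio above 0. Both copies of msx1 and of msx2 are among the 7 and were already counted with the BMP targets above. Besides msx1 and msx2 the fourth call is Xelaev18044833m, a model matched to GBX2, a homeobox gene of the midbrain-hindbrain boundary and neural border, at 0.350 RPKM in control 4, 15.5 in Xnr2 and 1.98 in Wnt8 plus Xnr2. A further GBX2 model, Xelaev18044831m, was listed with Xnr2 alone at 11.6 RPKM and was under 1.81 with Wnt8. In the other direction, Xelaev18031998m, matched to SNAI2, a crest regulator, was listed with Wnt8 plus Xnr2 alone at 5.08 RPKM and was under 1.83 in Xnr2. The list's median, -0.33, came to -0.02 when copies were summed. The cytokine feedback gene socs3.S, at 14.4 RPKM in Xnr2 and under 1.97 with Wnt8, and the VWF-matched model Xelaev18036538m, at 10.3 and under 1.27, also passed 4-fold at the bound. Of 338 transcripts listed with Xnr2 alone, 21 had at least 5 RPKM. socs3.S measured 10.8 RPKM in control 2, so that 1 control held it at a like level.

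The remaining calls downward carry little annotation. Xelaev18036547m, which has no gene match in the files, had the largest difference of all, with 6.80 RPKM in control 4, 54.0 in Xnr2 and 1.21 in Wnt8 plus Xnr2. Its log2 ratio was -4.64. Xelaev18036546m, also without a match, read 7.19, 77.9 and 12.4 RPKM, with 0.272 to 7.19 over the controls. Xelaev18036545m, unmatched too, read 6.38, 121 and 24.6 RPKM in control 4, Xnr2 and Wnt8 plus Xnr2. These models are numbered in sequence and may split the reads of 1 locus. Xetrov90020448m.S, another unmatched call, read 0.189, 14.0 and 1.85 RPKM. Xelaev18036484m, matched to the mucin-like FCGBP, was at 10.9 to 124 RPKM in the controls, 20.5 in Xnr2 and 3.41 with Wnt8. Its levels with both RNAs were below every control.

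Ciliated cell and ionocyte genes, which mark specialised cells of the embryonic skin, included many that were higher with Wnt8, most of them still below control 4. Of 27 transcripts 9 (33.3%, against 1.89% of all) were 2-fold higher and none 2-fold lower, and 23 had a log2 ratio above 0. The median was 0.68, and became 1.20 with a pseudocount of 0.1 RPKM and 0.26 with 5 RPKM. The spread of this list between controls was larger, 1.60. Their summed level was 1101 RPKM in control 4, 83.9 in Xnr2 and 214 in Wnt8 plus Xnr2. In Wnt8 plus Xnr2, 3 of the 27 were above control 4. foxi1.L, a forkhead regulator of ionocytes and ectoderm, was at 208 RPKM in control 4, 1.14 in Xnr2 and 23.7 in Wnt8 plus Xnr2, a read ratio of 20.7 (16.0 to 27.2). foxi1.S read 137, 0.397 and 14.0 RPKM. These had the 2 largest log2 ratios of all calls upward, 3.53 and 3.42, from 61 and 22 reads in Xnr2.

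ccno.L, a cyclin needed to make the many basal bodies of ciliated cells, read 81.8, 2.28 and 12.7 RPKM, and ccno.S 40.8, 1.09 and 5.09. The cilium regulator foxj1.S, named after its values were seen, was at 125, 19.6 and 44.7. Untreated caps differed widely here: foxj1.S ran from 5.61 to 188 RPKM and ccno.L from 4.74 to 178 over the 4 controls, while foxi1.L ran from 68.9 to 346. The foxi1 copies and ccno.L lay between the Xnr2 level and control 4 in Wnt8 plus Xnr2. Some genes of the ciliary shaft lay above control 4 instead. tekt1.L, a tektin of the list, read 1.43 RPKM in control 4, 2.70 in Xnr2 and 6.98 in Wnt8 plus Xnr2, with 1.13 to 5.36 over the controls. Outside the list, wdr16.L read 8.57, 8.45 and 22.1 and ccdc173.L 2.80, 9.11 and 21.98. These 3 were named after their values were seen.

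Epidermal genes did not rise with foxi1. Of 38 transcripts of the epidermis list 1 was 2-fold higher (2.63%, against 1.89% of all) and 3 were lower (7.89%, against 1.02%). In all, 30 had a log2 ratio below 0, with a median of -0.36. The larval keratin krt5.7.S was at 1754 RPKM in control 4, 301 in Xnr2 and 113 in Wnt8 plus Xnr2. The adhesion gene epcam.S, which many epithelia express, read 744, 699 and 619, and epcam.L 341, 364 and 269. Pan-neural genes had 4 of 23 transcripts higher (17.4%, against 1.89% of all) and 2 lower (8.70%, against 1.02%), with a median of 0.30. irx1.S, an Iroquois neural gene, was at 18.7, 2.83 and 12.7 RPKM, with 12.6 to 45.1 over the controls, and sox2.S at 17.9, 67.4 and 31.2, so the list did not move one way. gmnn.S (geminin), the most abundant pan-neural member with foxd4l1.1.L, was at 58.4, 146 and 190 RPKM, and foxd4l1.1.L at 0.322, 121 and 143. As a comparison list, 46 ribosomal protein transcripts had none past 2-fold, with a median of -0.26 and 45 of 46 below 0. Its most abundant members, the RPS18 models, read 551 and 498 RPKM for Xelaev18039125m and 519 and 444 for Xelaev18042417m.

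Where the 2 libraries lay relative to control 4 differed between the sets. Of the 22 called higher, control 4 was below both libraries in 13, between them in 3 and above both in 6. Of the 14 called lower it was below both in 8, between in 4 and above both in 2. In the wider 2-fold set, 160 of the 291 higher transcripts had a Wnt8 plus Xnr2 level within 0.5 log2 of control 4, which 73.9% of all transcripts had, and 136 had an Xnr2 level at least 2-fold below control 4. Of the 157 lower, 98 had an Xnr2 level at least 2-fold above control 4 and 19 a Wnt8 plus Xnr2 level within 0.5 of it. These positions involve the Xnr2 value that the rule itself used, so they are a description. Apart from the 73.9%, no share over all transcripts was counted for them, so 136 and 98 cannot be read as many or few.

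The Xnr2 library was at the end of the order for many of these transcripts. Among 253 of the 2-fold higher set measured in all 9 libraries used here, Xnr2 was below the other 7 libraries (4 controls, Wnt8 and both embryo pieces) in 105, or 41.5%, against 21.8% of all transcripts. Among 125 of the 2-fold lower set it was above the other 7 in 56, or 44.8%, against 14.8% of all. The rule itself draws Xnr2 to those ends. With 1 library, a property of the Xnr2 library and an effect of Wnt8 cannot be told apart.

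Wnt8 alone in plain caps offers a comparison that shares no library with the one above. Of 14165 transcripts in both comparisons, 45 (0.318%) were called higher with Wnt8 over control 3 and 53 (0.374%) lower. Of the 45 that were higher in plain caps, 30 had a log2 ratio below 0 in Xnr2 caps, against 41.9% of all transcripts. In Xnr2 caps 16 of them were 2-fold lower and 4 were 2-fold higher, against 1.02% and 1.89% of the 15376 transcripts. Their median log2 ratio in Xnr2 caps was -0.39, against 0.07 over all transcripts. Among the 45 is wnt8a.L, a copy of the injected gene, whose own ratio in Xnr2 caps was -0.39. The 53 that were lower in plain caps had a median of 0.00 in Xnr2 caps. There 5 of the 53 were 2-fold lower and 2 were 2-fold higher, against 1.02% and 1.89% of the 15376 transcripts. With a pseudocount of 5 RPKM the first set shrank to 7, of which 3 were below 0 in Xnr2 caps. Across transcripts, which share libraries and are not replicates, Pearson's r was 0.0023 and Spearman's rho 0.061.

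The number of transcripts called in opposite directions was 4. axin2.L was at 0.166 RPKM in control 3 and 22.8 with Wnt8 in plain caps, a log2 ratio of 4.35, and at -2.03 in Xnr2 caps. For sp5.L the ratios were 2.91 and -2.69, from 0.872 RPKM in control 3 and 13.1 with Wnt8. Xelaev18044833m (GBX2), at 0.443 and 6.67 RPKM, had 2.41 and -2.47. msx2.L, at 4.93 and 29.6 RPKM, had 2.37 and -2.04. Each of these was higher in Xnr2 than in control 4, and lower in Wnt8 plus Xnr2 than in Xnr2. The difference between the 2 effects was not tested, since each rests on 1 library a group.

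Others raised in plain caps and 2-fold lower in Xnr2 caps include hoxd1.S (log2 ratios 3.06 and -1.64), the zinc finger repressor znf703.L (2.45 and -1.74), cdx4.S (2.41 and -1.35) and fzd10.L (2.74 and -1.28). These and the next examples were chosen after their values were seen. The receptor gene ror2.L was higher in plain caps and little different in Xnr2 caps (3.33 and 0.21), as was pnhd.L, which encodes the secreted protein Pinhead (4.68 and -0.25). LOC100494211.L, the BIGHEAD transcript, alone was called higher in both, with 0.787 RPKM in control 3, 10.4 with Wnt8 in plain caps, 3.72 in Xnr2 and 19.8 in Wnt8 plus Xnr2. Its log2 ratios were 2.67 and 2.14. The copy LOC100494211.S had 1.87 and 1.52, and its levels in Xnr2 and Wnt8 plus Xnr2 were 3.12 and 10.8 RPKM. Bighead, the secreted Wnt antagonist named in the study's title, thus had the same direction on both backgrounds.

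**Figure D4:**
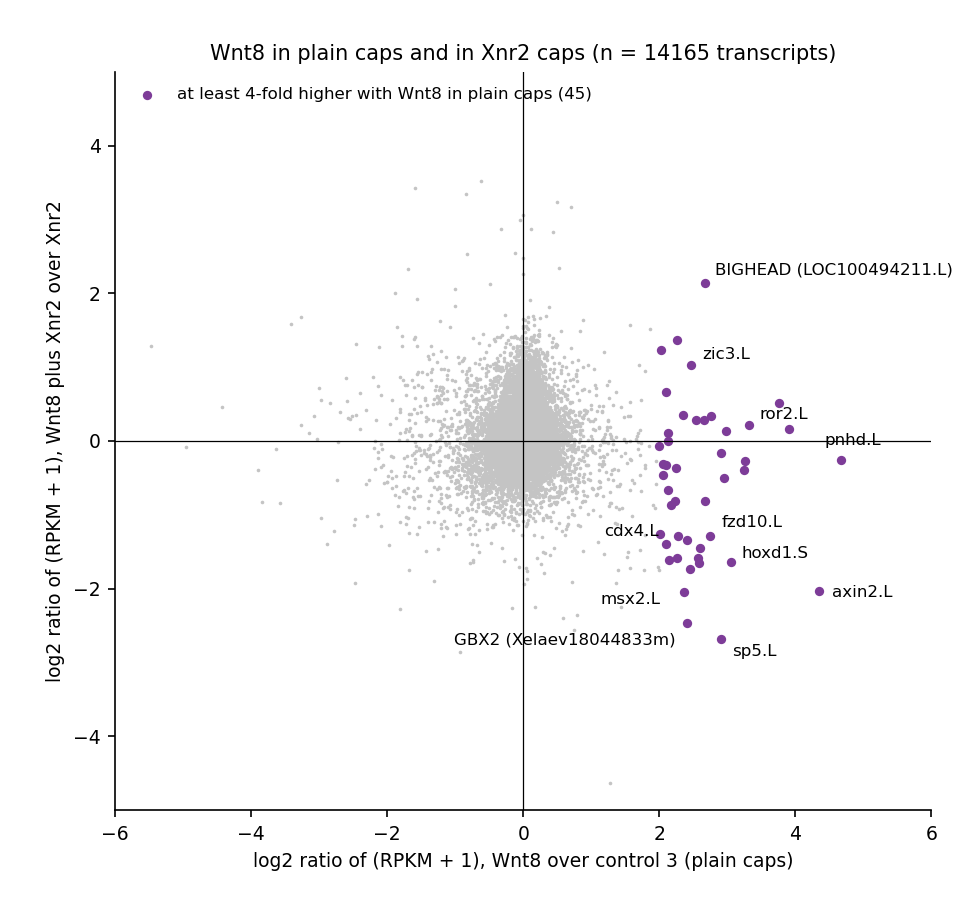
Each point is 1 of 14165 transcripts, placed by the log2 ratio of (RPKM + 1) of Wnt8 over control 3 in plain caps (x) and of Wnt8 plus Xnr2 over Xnr2 (y); purple points are the 45 called higher in plain caps. axin2.L, sp5.L, msx2.L and the GBX2 model lie at the lower right, and the BIGHEAD transcript lies alone at the upper right.

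The embryo pieces give the position of the same transcripts in the gastrula, in libraries that share nothing with the caps. Of the 22 called higher 20 were measured in the pieces and 13 of these were higher in the dorsal piece, with a median log2 ratio, dorsal over ventral, of 1.07. Of the 14 called lower 12 were measured and 10 were higher in the ventral piece, with a median of -1.18. Among those 10 are Xelaev18036545m, Xelaev18036546m and Xelaev18036547m, which may be 1 locus. Over all 13256 transcripts 48.2% were higher dorsally. In the 2-fold sets the share higher dorsally was 45.1% of 255 higher transcripts and 21.1% of 128 lower ones. The wider higher set thus had no dorsal majority, whereas the lower one was mostly ventral.

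crx.L was at 70.0 RPKM in the dorsal and 2.79 in the ventral piece, admp.L at 28.5 and 0.736, frzb.L at 137 and 20.1, and cer1.S at 216 and 59.7. These organizer transcripts had the largest dorsal over ventral ratios among the calls, with both other Otx-family transcripts. sox17a.S was nearly even, at 112 and 130, and ccno.L and foxi1.L were somewhat higher ventrally. msx1.L was at 46.8 RPKM dorsally and 187 ventrally, msx2.L at 12.5 and 42.2 and sp5.L at 20.6 and 54.5. junb.L, at 17.5 and 12.0, and nr4a1.L, at 1.90 and 1.41, are the 2 called lower that were dorsally higher. By list, the median dorsal over ventral log2 ratio was 2.40 for 17 organizer transcripts, 2.19 for 10 anterior neural ones, -1.10 for 26 posterior ones and -1.16 for 34 BMP and ventral ones.

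**Figure D5:**
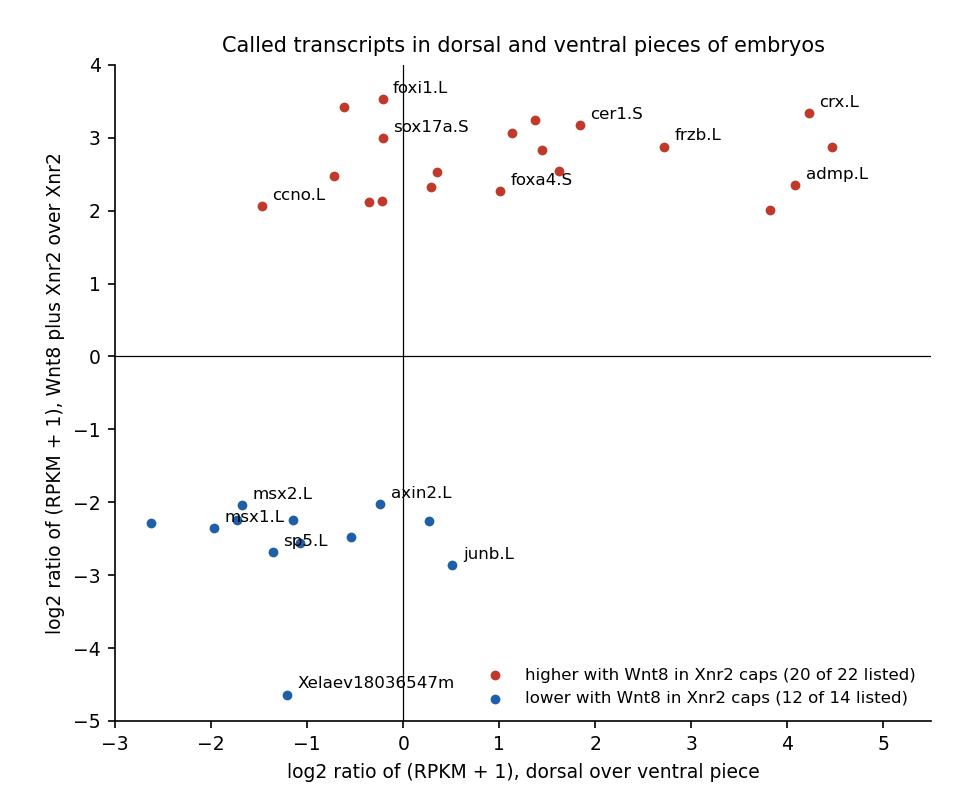
Called transcripts placed by the log2 ratio of (RPKM + 1) of the dorsal over the ventral piece (x) and of Wnt8 plus Xnr2 over Xnr2 (y), for the 20 of 22 called higher (red) and 12 of 14 called lower (blue) that were measured in the pieces. On the dorsal side lie 13 red points, and 10 blue points lie on the ventral side.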

How the data were processed

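Polyadenylated RNA of each sample was sequenced as 100-bp single-end reads, per the labels' protocols. The submitters' processing notes name TopHat2 2.09 and DESeq; the counting rule is not given in the sources used here. The deposited values are RPKM per transcript, per the file headers, on the JGI9.1 models of Xenopus laevis, with human matches as symbols. The list of each injected library holds transcripts whose mean over that library and its control is at least 1 RPKM. No test was possible with 1 library a group. Log2 ratios used a pseudocount of 1 RPKM, and calls needed a 4-fold ratio and 5 RPKM or more in the larger value. Whole reads were recovered from the RPKM steps (within 0.01 reads) for 15370 transcripts, all with at least 3 values above 0. The exact binomial intervals (95%) come from those reads, which are not independent molecules, and cover counting error only. In all, 5 repeated IDs were left out. L and S copies and neighbouring models can share reads, so their split is uncertain, and reads of overlapping genes on opposite strands cannot be told apart.

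Named transcripts are the 12 largest calls with a symbol in each direction (1 per gene), up to 4 calls a list in each direction, the 2 most abundant members of lists with no call, nodal2 and wnt8a, the most abundant of 1 list only (8 and 4), and those called in opposite directions in plain and Xnr2 caps. Names beyond it were chosen after their values were seen. One list member is not reported here by name. The 20 gene lists and the members were chosen with earlier results of these data known. One of them, blastula targets of maternal beta-catenin, had 0 transcripts listed in both libraries. Scripts were tested on simulated data and run with Python 3.11.15, pandas 2.3.3, numpy 2.4.6 and scipy 1.17.1. Other pseudocounts, folds, minimums, scalings, summed copies and transcript sets were tried. No sequences or coordinates are given, since the gene table used here is of another build.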

Additional observations from a re-analysis of the deposited data

Results flagged for a closer look

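Control 1 stood apart from the other 3 controls for msx1.S, at 7.38 RPKM against 80.4 to 118 in the others. It is 1 of 16 called transcripts checked over the controls, and chance alone sets about 1 in 20 such groups apart. Control 1 also differed more widely as a library: its pairs with the other controls had 302 to 657 transcripts past 4-fold, against 113 to 153 for pairs without it.

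In all, 4 transcripts had opposite directions with Wnt8 in plain caps and in Xnr2 caps, a difference that was not tested. The log2 ratios in plain and Xnr2 caps were 4.35 and -2.03 for axin2.L, 2.41 and -2.47 for Xelaev18044833m (GBX2), 2.37 and -2.04 for msx2.L, and 2.91 and -2.69 for sp5.L.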

How the results depend on the processing

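The 22 calls upward became 11 with a pseudocount of 5 RPKM, 14 with a minimum of 20 RPKM, 291 at 2-fold and 6 at 8-fold. The 14 downward became 22 with a pseudocount of 0.1 RPKM, 5 with 5 RPKM, 9 with a minimum of 20 RPKM, 157 at 2-fold, 1 at 8-fold and 23 where the 95% bound of the read ratio had to pass 4-fold. The count below 0 in Xnr2 caps among transcripts higher in plain caps, 30, became 3 of 7 with a pseudocount of 5 RPKM. Of 133 list medians under the alternatives, 14 moved by more than 1 SD of the controls. The organizer median became 1.48 and 0.89 with pseudocounts of 0.1 and 5 RPKM and 1.43 without transcripts lacking a read in the full table. The notochord median became -0.033 centred and -0.059 after quantile normalization, Mix and T-box 0.036 without transcripts lacking a read, and endoderm 1.07 with transcripts of 1 list at their bound. The posterior median became -1.05 and -0.59 with the 2 pseudocounts, -0.83 with copies summed, -1.02 centred, -1.02 after quantile normalization and -0.83 at the bound. Neural border and crest became -0.016 with copies summed. The cause of these moves was not tested. None of 223 values of called transcripts reversed. These transcripts were chosen for a large ratio, and another pseudocount cannot change the sign of a ratio. That outcome was thus largely fixed beforehand and is no support for the calls. No paired analysis was possible because each injected group is 1 library. Depth limits low transcripts: the foxi1 ratios rest on 61 and 22 reads in Xnr2.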
